A study of Mus musculus with 12 samples.

Results

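Nuclear pores are built of nucleoporins, and importins and exportins are the soluble receptors that carry cargo through them. The transcripts of 46 such genes, all those of a deposited mouse table of 16353 genes whose symbols begin with Nup and a digit, Nupl, Kpna, Kpnb, Ipo, Xpo or Tnpo, were followed in CD8 T cells taken from 4 conditions. The rule uses names and no measured value, but the genes were chosen with earlier results of these data known. 45 of the 46 had enough reads to be tested among 12499 genes, and the other, Nup62cl, a relative of the channel nucleoporin Nup62, is given by its reads below.

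A pore is a scaffold of stacked rings held in the nuclear envelope, with a central channel filled by nucleoporins rich in phenylalanine and glycine repeats. Importin alpha proteins recognise classical nuclear localisation signals and dock on importin beta, other members of the importin beta family bind their cargo directly, and exportins carry cargo outwards. The small GTPase Ran sets the direction, since its GTP form releases import cargo and binds export complexes inside the nucleus. In resting lymphocytes the nucleus and cytoplasm are small, and after antigen recognition the cells enlarge and raise the synthesis of ribosomes, RNA and protein, whose parts cross the pore.

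The cells carried the KB5 transgenic T cell receptor, which recognises C57BL/6 antigen, came from spleens of CBA/J mice and were sorted on that receptor and CD8, to 95% purity per the labels. Inflamed cells came from mice given 10 M C57BL/6 splenocytes intravenously together with 0.5 mg of anti-CD154 and 100 µg of lipopolysaccharide (LPS), both intraperitoneally. Tolerized cells came from mice given the splenocytes with 0.5 mg of anti-CD154, a costimulation blocker directed at CD40 ligand, and activated cells from mice given the splenocytes alone. These 3 antigen-exposed groups were taken at 12 h, and naive cells came from untreated mice. Each group held 3 libraries of messenger RNA, 12 in all, of 29.3 to 84.5 M assigned reads. The labels call the libraries independent without saying that each came from a separate mouse, so the p-values speak of the spread among these samples and no wider. Their text on extraction also names embryonic fibroblasts, which goes against the sorted T cells of the other labels.

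Levels are given as read counts per M reads (CPM, scaled by trimmed mean of M factors), which are shares of a library's transcripts and not amounts per cell. Changes are log2 fold changes of CPM + 1 from a limma fit across all tested genes, with the SE after ±, and a gene was called at a Benjamini-Hochberg adjusted p under 0.05. In sorted bulk samples a change in how many cells of a type were present and a change in RNA per cell cannot be told apart. Of the 45 genes found in the annotation used for exons (GENCODE M21), 15 share exon bases with another gene, and whether reads were counted by strand is not given in the sources used here.

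All 8 T cell markers checked (Cd3e, Cd8a and others) were present, with summed levels of 3368 to 3594 CPM in inflamed, 2512 to 3156 in tolerized and 2207 to 3407 in activated libraries, against 4481 to 5545 in naive libraries. Transcripts of 13 red pulp macrophage markers summed to 15.7 to 450.1 CPM in inflamed, 58.2 to 174 in tolerized and 75.8 to 872 in activated libraries, against 1010.1 to 2558 in naive libraries. The 8 erythroid markers reached 2399 CPM and the 8 B cell markers 466 CPM in naive libraries, against at most 302 and 174 CPM in any antigen-exposed library, and 9 neutrophil markers summed to 13.4 to 239 CPM in inflamed libraries against at most 24.7 elsewhere. The 6 dendritic cell markers summed to at most 36.7 CPM in any library. No marker on these lists was at 0 in every library. The part these other transcripts play in the levels below was not tested. Activated 1 and naive 1, with 872 and 1010.1 CPM, were close in macrophage transcripts but not in erythroid (302 and 1135 CPM) or B cell transcripts (102 and 367 CPM), and 42 of 45 transport genes were higher in activated 1, by a median of 1.28 on the log2 scale. This pair holds 1 library of each group, the same count over all tested genes was not made, and the difference was not tested.

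Nearly all of the transport genes were more abundant after antigen exposure in each of the 3 groups. In inflamed cells 42 of the 45 tested genes rose, 1 fell and 2 were not called relative to naive cells. In tolerized cells 41 rose, 1 fell and 3 were not called, and in activated cells the counts were again 41, 1 and 3. Among all 12499 genes limma called 36.9% higher and 35.5% lower in inflamed cells, 37.4% higher and 35.9% lower in tolerized cells, and 35.3% higher and 35.3% lower in activated cells. The median change of the 45 genes was 1.37 in inflamed, 1.38 in tolerized and 1.30 in activated cells, while that of all tested genes was -0.01 in inflamed, -0.01 in tolerized and -0.04 in activated cells. At least 2-fold rises were called for 34 genes in inflamed, 32 in tolerized and 31 in activated cells. Of all 12499 genes, 2334, 2375 and 2131 had such calls, in the same order. The 3 comparisons share the naive libraries, and calls shared by all 3 were counted for the transport genes only, not over all tested genes. 41 genes rose in all 3 and Nup210 fell in all 3, Nup210l and Nup62-il4i1 were called in none, and Ipo8 was called higher in inflamed cells and narrowly missed the threshold in the others, with no called difference between the antigen-exposed groups.

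**Figure D1:**
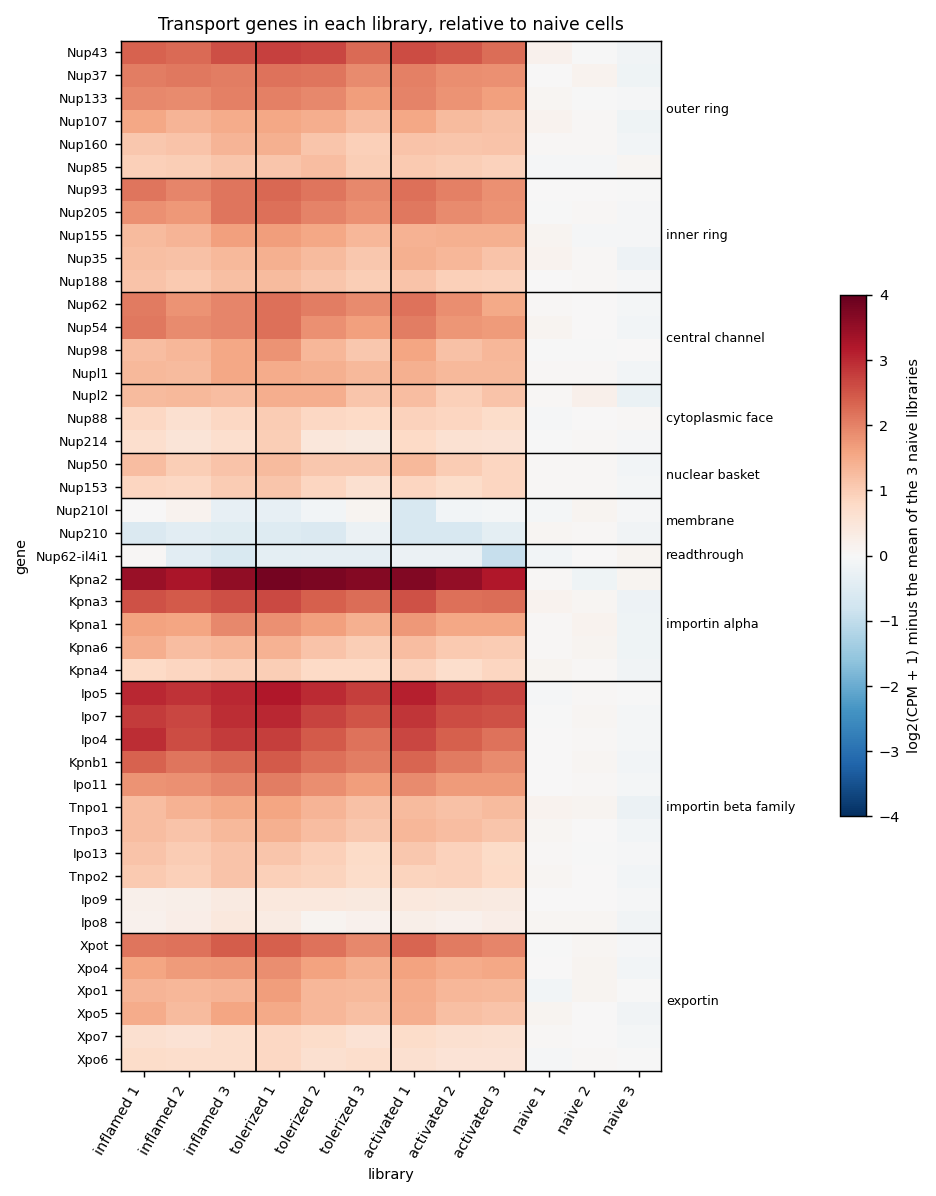
Level of the 45 tested transport genes in each of the 12 libraries, as log2(CPM + 1) minus the mean of the 3 naive libraries, with genes grouped by their place in the pore or their role (rows) and libraries by group (columns). Nearly every row is red across the 9 antigen-exposed libraries, most strongly Kpna2, while Nup210 is blue and Ipo8 and Ipo9 are close to white. Nup62-il4i1 is also below the naive mean in all of them but inflamed 1, and Nup210l lies on both sides of it.

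An adaptor of classical import changed most. Kpna2, an importin alpha whose transcript is known to be abundant in cycling cells, lies at chr11:106988629-106999525 (mouse GRCm38.p6, as are all coordinates here). It measured 239.9, 211 and 255 CPM in inflamed libraries, 311, 296 and 279 in tolerized libraries, 282, 248 and 202 in activated libraries, against 21.8, 18.6 and 22.7 in naive libraries. Every antigen-exposed library was above every naive library, at log2 fold changes of 3.42 in inflamed, 3.75 in tolerized and 3.47 in activated cells (SE 0.13 each, limma adjusted p from 1.40e-08 to 3.46e-08), which correspond to 10.7-fold in inflamed, 13.5-fold in tolerized and 11.1-fold in activated cells. Kpna3, another importin alpha, stood at 218, 204 and 222 CPM in inflamed libraries, 230.1, 194 and 174 in tolerized libraries, 215, 172 and 173 in activated libraries, against 39.9, 38.1 and 31.3 in naive libraries. It rose by 2.53 in inflamed, 2.42 in tolerized and 2.33 in activated cells (SE 0.13 each), again with no overlap of the groups. Kpna1 measured 198, 194 and 249 CPM in inflamed libraries, 231, 205 and 176 in tolerized libraries, 218, 189.8 and 190.0 in activated libraries, against 66.5, 70.5 and 57.0 in naive libraries. It rose by 1.70 in inflamed, 1.64 in tolerized and 1.61 in activated cells (SE 0.13 each). Kpna6 had 164, 139 and 152 CPM in inflamed libraries, 157, 131 and 117 in tolerized libraries, 142, 124 and 120.5 in activated libraries, against 61.3, 64.1 and 53.0 in naive libraries. Its change was 1.34 in inflamed, 1.16 in tolerized and 1.10 in activated cells (SE 0.12 each). Kpna4, which in human cells is known to carry NF-kappaB subunits into the nucleus, was the most abundant importin alpha in naive cells and changed least, with 276, 294 and 310.1 CPM in inflamed libraries, 319.9, 276 and 277 in tolerized libraries, 301, 264 and 291 in activated libraries, against 173, 164 and 145 in naive libraries. The change of Kpna4 was 0.87 in inflamed, 0.86 in tolerized and 0.83 in activated cells (SE 0.09 each, limma adjusted p from 1.32e-05 to 2.18e-05), so that all 5 importin alpha genes rose in each of the 3 comparisons and differed in how far.

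The make-up of the importin alpha transcripts differed accordingly. Divided by the exon length deposited for each gene, the 5 genes together summed to 325 ± 23.1 CPM per kb in inflamed, 345 ± 31.0 in tolerized and 313 ± 32.8 in activated cells, against 88.6 ± 6.76 in naive cells (SD, n = 3 each). Kpna2 made up 35.5% ± 1.25 in inflamed, 42.1% ± 1.56 in tolerized, 38.1% ± 3.11 in activated and 11.7% ± 1.87 in naive cells (SD, n = 3 each). Kpna4 made up 24.2% ± 1.51 in inflamed, 22.6% ± 0.808 in tolerized, 24.6% ± 2.30 in activated and 48.5% ± 0.718 in naive cells. The share of Kpna3 was 15.9% ± 0.545 in inflamed, 13.8% ± 0.732 in tolerized, 14.3% ± 0.571 in activated and 9.85% ± 0.492 in naive cells. Kpna1 kept a share of 14.6% to 18.1% in the group means, and Kpna6 held 6.82% to 8.18% in the antigen-exposed groups, against 11.8% in naive cells. In each antigen-exposed library Kpna2 exceeded Kpna4 per kb, and in each naive library Kpna4 exceeded Kpna2. Among all 46 genes Kpna2 ranked 5 by mean CPM per kb in inflamed cells and 4 in tolerized and in activated cells, against 32 in naive cells.

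**Figure D2:**
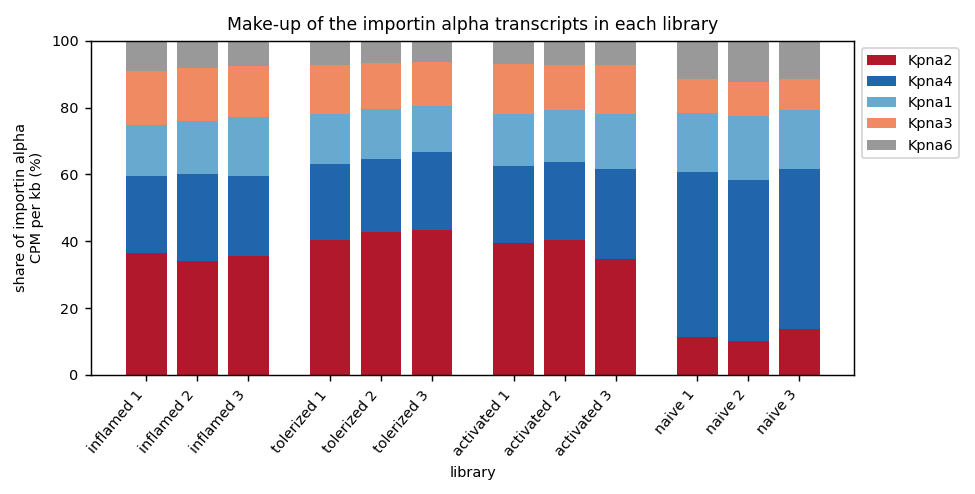
Share of each importin alpha gene in the summed CPM per kb of the 5 genes (y axis, in %), for each library (x axis). Kpna2 takes 35.5% to 42.1% in the means of the antigen-exposed groups and 11.7% in naive cells, where Kpna4 takes 48.5%.

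Receptors of the importin beta family that carry cargo inwards rose in 11 of 11 genes in inflamed cells and in 10 of 11 in tolerized and in activated cells, over a wide range of sizes. Kpnb1, importin beta itself and the partner of the importin alpha proteins, was the most abundant of all 46 genes per kb in every antigen-exposed group. Its level was 1396, 1201 and 1303 CPM in inflamed libraries, 1503, 1247 and 1125 in tolerized libraries, 1371, 1151 and 1011 in activated libraries, against 276, 288 and 251 in naive libraries. This was a change of 2.26 in inflamed, 2.24 in tolerized and 2.10 in activated cells (SE 0.14 each) with no overlap of the groups (limma adjusted p from 2.29e-07 to 4.48e-07). Ipo5 and Ipo7 are receptors known to import ribosomal proteins, and Ipo4 and Ipo9 are known as carriers of core histones. Ipo5 measured 878, 797 and 883 CPM in inflamed libraries, 997, 849 and 736 in tolerized libraries, 943, 754 and 710.1 in activated libraries, against 104, 111 and 107 in naive libraries. The antigen-exposed libraries lay far above the naive ones, at 2.98 in inflamed, 2.98 in tolerized and 2.88 in activated cells (SE 0.13 each, limma adjusted p from 5.01e-08 to 9.77e-08). For Ipo7 the values were 545, 496 and 603 CPM in inflamed libraries, 628, 512 and 443 in tolerized libraries, 566, 477 and 458 in activated libraries, against 76.3, 82.3 and 73.2 in naive libraries. The log2 fold change was 2.81 in inflamed, 2.74 in tolerized and 2.67 in activated cells (SE 0.13 each). Ipo4 had 483, 387 and 438 CPM in inflamed libraries, 427, 343 and 284 in tolerized libraries, 400.3, 331 and 286 in activated libraries, against 62.7, 64.9 and 59.0 in naive libraries. It rose by 2.78 in inflamed, 2.46 in tolerized and 2.42 in activated cells (SE 0.16 each). Its exons overlap those of the gene model Gm49378 on the same strand over 55.3% of their length, so reads of the pair may not be separated.

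Ipo9 and Ipo8 stood at the other end of the family. Ipo9 measured 118, 120.1 and 129.6 CPM in inflamed libraries, 136, 135 and 134 in tolerized libraries, 135, 134 and 129 in activated libraries, against 102, 103 and 98.7 in naive libraries. It rose by only 0.27 in inflamed, 0.41 in tolerized and 0.39 in activated cells (SE 0.06 each), although no antigen-exposed library overlapped a naive one (limma adjusted p from 1.40e-04 to 0.00228). Ipo8, a close relative of Ipo7 that is known to carry Smad proteins, had 92.8, 99.2 and 111 CPM in inflamed libraries, 103, 89.0 and 92.3 in tolerized libraries, 97.6, 92.0 and 99.5 in activated libraries, against 86.4, 86.5 and 73.8 in naive libraries. All antigen-exposed libraries lay above the naive ones, by little. The change of 0.29 ± 0.10 was called in inflamed cells (limma adjusted p = 0.0168), while 0.20 ± 0.10 in tolerized cells (adjusted p = 0.0737) and 0.23 ± 0.10 in activated cells (adjusted p = 0.0505) were not. The call in inflamed cells was lost without inflamed 3 (adjusted p = 0.0532) and without naive 3 (adjusted p = 0.0679). Ipo8 was instead called in activated cells when these were fitted with naive cells alone (adjusted p = 0.0405) and without inflamed 1, 2 or 3 or tolerized 1 (adjusted p from 0.0245 to 0.0399), and in tolerized cells without inflamed 3 (adjusted p = 0.0493). With scaling by library size alone the median of all genes was -0.27 in inflamed, -0.25 in tolerized and -0.26 in activated cells relative to naive cells, and Ipo8 was below naive cells, at -0.033 in inflamed, -0.10 in tolerized and -0.044 in activated cells. Ipo9 was then at -0.059 in inflamed, 0.10 in tolerized and 0.11 in activated cells, and neither gene was called in any of the 3 comparisons. The other 5 genes of the family, Ipo11, Tnpo1, Tnpo3, Ipo13 and Tnpo2, rose by 0.85 to 1.86 over the 3 comparisons. Tnpo1, the import receptor of several RNA-binding proteins, averaged 336 ± 30.5 CPM in inflamed, 337 ± 45.9 in tolerized and 304 ± 11.2 in activated cells, against 129 ± 18.0 in naive cells (SD, n = 3 each). Per kb, the 11 receptors summed to 973 ± 61.0 CPM in inflamed, 937 ± 139 in tolerized and 884 ± 102 in activated cells, against 239 ± 14.0 in naive cells. Ipo5 took 19.1% ± 0.161 in inflamed, 20.0% ± 0.164 in tolerized, 19.7% ± 0.781 in activated and 9.82% ± 0.612 in naive cells. Ipo8 took 1.94% ± 0.179 in inflamed, 1.91% ± 0.194 in tolerized, 2.05% ± 0.254 in activated and 6.42% ± 0.208 in naive cells.

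**Figure D3:**
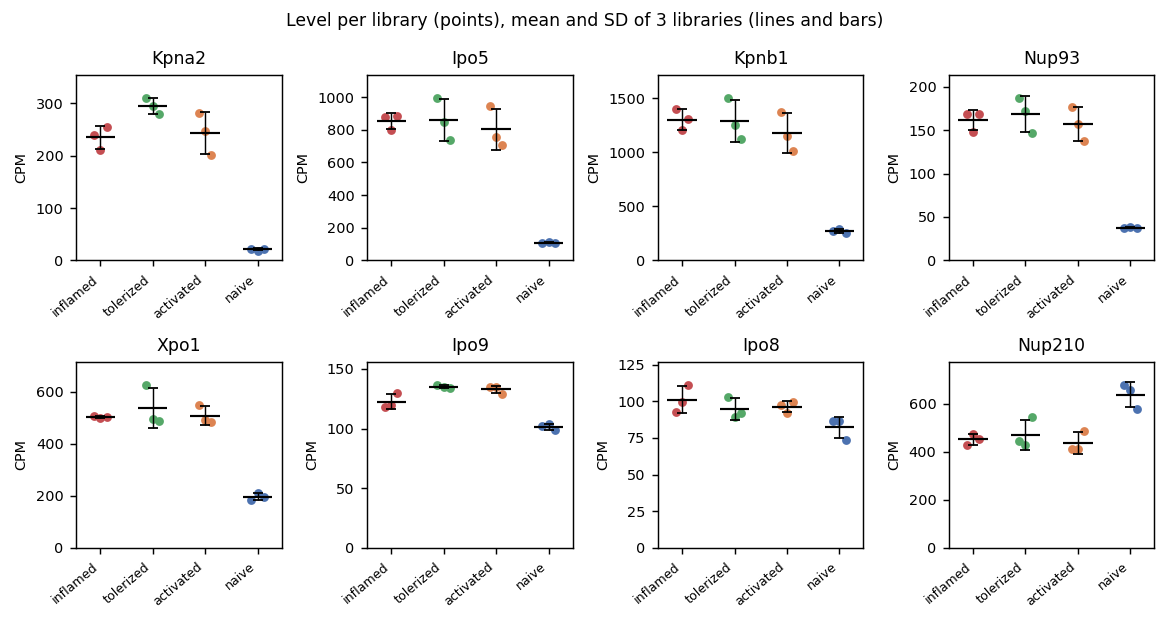
CPM of 8 transport genes in each library (points), with the mean and SD of the 3 libraries of each group (lines and bars), inflamed, tolerized, activated and naive from left to right and each axis starting at 0. Kpna2, Ipo5, Kpnb1, Nup93 and Xpo1 are several-fold higher in antigen-exposed libraries, Ipo9 and Ipo8 are close to naive levels, and Nup210 is lower.

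Promoter sequence, from 250 bases before to 50 after a start site taken from RefSeq (GRCm38.p6), was at hand for 37 of the 46 genes, in 44 windows. The E-box CACGTG, which reads the same on both strands and is bound by Myc among other factors, was present for 7 of the 37 genes (18.9%), against 11.8% of the 10049 tested genes with a window and 8.09% of all 27025 genes with a window. These 7 were Ipo7, Ipo4, Xpot, Nup93, Nup54, Nup188 and Tnpo2. Their median change in activated over naive cells was 2.02, against 1.24 for the 29 tested members with a window and no E-box, and over all tested genes the medians were 0.15 with and -0.05 without it. The lists were not tested for this, and a match is no evidence of binding. The windows of the 4 with the largest changes are printed 5′ to 3′ on the strand of the gene, with the E-box in capitals. That of Ipo7 is chr7:110018065-110018364 on the plus strand with the E-box starting 137 bases before the start site, that of Ipo4 is chr14:55635635-55635934 on the minus strand with the E-box 14 bases after it, that of Xpot is chr10:121626283-121626582 on the minus strand with it 231 bases before, and that of Nup93 is chr8:94214314-94214613 on the plus strand with it 175 bases before. The start sites of Ipo7 and Nup93 are the outer ends of the genes in RefSeq, while those of Ipo4 and Xpot lie 184 and 174 bases inside them, so that counted from the outer end the E-box is 198 bases inside Ipo4 and 57 bases before Xpot.
Ipo7: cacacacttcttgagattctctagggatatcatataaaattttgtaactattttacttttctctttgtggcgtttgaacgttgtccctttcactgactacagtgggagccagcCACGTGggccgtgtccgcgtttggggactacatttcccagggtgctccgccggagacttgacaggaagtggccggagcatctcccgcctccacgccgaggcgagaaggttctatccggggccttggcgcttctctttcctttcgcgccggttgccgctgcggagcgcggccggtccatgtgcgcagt
Ipo4: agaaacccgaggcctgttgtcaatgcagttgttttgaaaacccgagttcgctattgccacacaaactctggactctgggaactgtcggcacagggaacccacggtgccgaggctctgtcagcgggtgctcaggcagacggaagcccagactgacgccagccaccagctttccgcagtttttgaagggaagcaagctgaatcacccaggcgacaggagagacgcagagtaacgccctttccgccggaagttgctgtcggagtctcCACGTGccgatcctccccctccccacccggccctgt
Xpot: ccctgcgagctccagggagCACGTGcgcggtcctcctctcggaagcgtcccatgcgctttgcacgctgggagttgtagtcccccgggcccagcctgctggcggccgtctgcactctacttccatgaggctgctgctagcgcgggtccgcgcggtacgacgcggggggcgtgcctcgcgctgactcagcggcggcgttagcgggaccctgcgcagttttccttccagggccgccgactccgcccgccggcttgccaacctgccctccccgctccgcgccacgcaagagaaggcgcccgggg
Nup93: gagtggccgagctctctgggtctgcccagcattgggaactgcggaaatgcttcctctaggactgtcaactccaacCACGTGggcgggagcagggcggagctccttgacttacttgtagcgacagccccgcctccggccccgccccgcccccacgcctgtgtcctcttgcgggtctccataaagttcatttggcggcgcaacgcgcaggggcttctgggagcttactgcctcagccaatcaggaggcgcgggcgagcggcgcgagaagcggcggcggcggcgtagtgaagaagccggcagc

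Other motifs were read from the same windows on both strands. GCGCATGC, the core bound by NRF1, was in 5 of the 37 genes (13.5%), against 5.91% of tested genes, namely Nup62, Nup107, Nup50, Nupl1 and Xpo5. CCAAT was in 54.1% of the 37 genes and 43.0% of tested genes, GGGCGG in 73.0% and 66.8%, and CCGGAAG in 18.9% and 19.8%. Kpna2, the most changed gene, had CCAAT at 2 places and no E-box in its window, and Nup210, the gene that fell, had GGGCGG at 2 places and none of the other 4 motifs. Ipo5 and Kpnb1, which rose by 2.88 and 2.10 in activated cells, also had no E-box. The windows of Ipo5 (chr14:120910944-120911243 and chr14:120915597-120915896) and Nup210 (chr6:91116777-91117076) lie inside these genes. Their outer ends in RefSeq are at chr14:120896840 and chr6:91118322, and motifs there were not read. Nup188 and Tnpo2 had 2 E-boxes each and rose by 1.01 and 0.88, the smallest rises among the genes with an E-box.

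All 6 exportins rose in each of the 3 comparisons. Xpot, the exportin of transfer RNA, changed most, with 272, 277 and 335 CPM in inflamed libraries, 324, 279 and 235 in tolerized libraries, 313, 263 and 241 in activated libraries, against 60.7, 63.9 and 58.3 in naive libraries. Its log2 fold changes were 2.25 in inflamed, 2.17 in tolerized and 2.13 in activated cells (SE 0.13 each, limma adjusted p from 2.11e-07 to 3.75e-07). Xpo1, the general receptor for proteins with leucine-rich export signals, was the most abundant exportin per kb after antigen exposure. It measured 505, 497 and 500.4 CPM in inflamed libraries, 625, 496 and 487 in tolerized libraries, 549.8, 490.4 and 483 in activated libraries, against 183, 211 and 195 in naive libraries. The lowest antigen-exposed library was above the highest naive library. Its change was 1.35 in inflamed, 1.44 in tolerized and 1.37 in activated cells (SE 0.10 each). Xpo5, which carries microRNA precursors, rose by 1.44 in inflamed, 1.35 in tolerized and 1.26 in activated cells (SE 0.12 each). Xpo4 rose by 1.66 in inflamed, 1.63 in tolerized and 1.54 in activated cells (SE 0.11 each). Xpo6, the exportin of actin with profilin, and Xpo7 moved least. Xpo6 had 328, 319 and 322 CPM in inflamed libraries, 349, 306 and 321 in tolerized libraries, 309.7, 285 and 289 in activated libraries, against 191, 204 and 196 in naive libraries. The change was 0.71 in inflamed, 0.72 in tolerized and 0.58 in activated cells (SE 0.07 each). For Xpo7 the change was 0.64 in inflamed, 0.70 in tolerized and 0.66 in activated cells (SE 0.08 each), and its level per kb rests on a deposited exon length of 15118 bases, the longest of the 46 genes. Per kb, Xpo1 made up 31.9% ± 1.12 in inflamed, 33.8% ± 1.07 in tolerized, 34.1% ± 0.182 in activated and 30.4% ± 1.30 in naive cells of the exportin sum. Xpot made up 16.1% ± 1.32 in inflamed, 15.1% ± 0.982 in tolerized, 15.7% ± 0.953 in activated and 8.12% ± 0.118 in naive cells. Xpo6 made up 23.8% ± 0.879 in inflamed, 23.9% ± 1.68 in tolerized, 22.9% ± 0.817 in activated and 35.3% ± 0.778 in naive cells.

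The scaffold of the pore rose as a whole. In the outer ring, the Y-shaped complex that coats both faces of the pore, all 6 genes rose in each comparison, with a median change of 1.70 in inflamed, 1.64 in tolerized and 1.57 in activated cells. Nup43, a small subunit of that complex, changed most of the nucleoporins and measured 47.4, 43.9 and 55.5 CPM in inflamed libraries, 61.4, 58.4 and 44.3 in tolerized libraries, 56.9, 51.6 and 42.8 in activated libraries, against 9.53, 8.33 and 7.45 in naive libraries. It rose by 2.40 in inflamed, 2.55 in tolerized and 2.44 in activated cells (SE 0.16 each, limma adjusted p from 2.79e-07 to 4.45e-07). Nup85 was the least changed of the outer ring, with 102, 102 and 112 CPM in inflamed libraries, 113, 122 and 104 in tolerized libraries, 109, 103 and 98.3 in activated libraries, against 50.2, 50.5 and 54.9 in naive libraries. Its rise of 1.01 in inflamed, 1.11 in tolerized and 0.98 in activated cells (SE 0.08 each) was nevertheless larger than the spread between libraries, and the groups did not overlap. Nup37, Nup133, Nup107 and Nup160 lay between them.

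In the inner ring all 5 genes rose in each comparison. Nup93, which anchors that ring and holds the channel nucleoporins, had 168, 148 and 168 CPM in inflamed libraries, 187, 171 and 147 in tolerized libraries, 176, 157 and 137 in activated libraries, against 37.8, 38.4 and 36.9 in naive libraries. Its change was 2.07 in inflamed, 2.12 in tolerized and 2.02 in activated cells (SE 0.11 each, limma adjusted p from 1.28e-07 to 2.01e-07). Nup205, a large partner of Nup93, rose by 1.89 in inflamed, 2.01 in tolerized and 1.93 in activated cells (SE 0.13 each). Nup188, the other large partner, stood at 229, 216 and 238 CPM in inflamed libraries, 248, 223 and 204 in tolerized libraries, 227, 202 and 197 in activated libraries, against 105, 105 and 98.8 in naive libraries. It rose by 1.13 in inflamed, 1.11 in tolerized and 1.01 in activated cells (SE 0.09 each), less than Nup93. Nup155 and Nup35 rose by 1.22 to 1.51.

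The channel nucleoporins followed. Nup62, whose repeats line the channel together with Nup54 and Nupl1, measured 155, 126 and 141 CPM in inflamed libraries, 166, 152 and 136 in tolerized libraries, 164, 131 and 104 in activated libraries, against 37.0, 36.3 and 33.7 in naive libraries. It rose by 1.95 in inflamed, 2.05 in tolerized and 1.85 in activated cells (SE 0.15 each). Nup54 rose by 1.99 in inflamed, 1.89 in tolerized and 1.84 in activated cells (SE 0.14 each). Nupl1 and Nup98 rose less, by 1.35 to 1.40 over the 3 comparisons, and Nupl1 shares 48.8% of its exon bases with the gene model Gm49336. Of Nup62cl, 2 of the 12 libraries held any read, at 0.0779 CPM in inflamed 2 and 0.113 CPM in activated 3, and its level was not tested.

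Nucleoporins at the 2 faces of the pore changed less than most of the scaffold. On the cytoplasmic face Nupl2 rose by 1.26 in inflamed, 1.33 in tolerized and 1.11 in activated cells (SE 0.15 each), Nup88 by 0.76 in inflamed, 0.87 in tolerized and 0.84 in activated cells (SE 0.09 each) and Nup214, a repeat-bearing docking site for export complexes, by 0.63 in inflamed, 0.61 in tolerized and 0.67 in activated cells (SE 0.14 each). Nup214 measured 170.2, 151 and 171 CPM in inflamed libraries, 211, 145 and 138 in tolerized libraries, 186, 162 and 159.8 in activated libraries, against 106, 110.3 and 102 in naive libraries, and the groups did not overlap. In the nuclear basket Nup50, a cofactor that helps to release importin alpha cargo, rose by 1.12 in inflamed, 1.14 in tolerized and 1.06 in activated cells (SE 0.11 each). Nup153 rose by 0.90 in inflamed, 0.87 in tolerized and 0.82 in activated cells (SE 0.11 each). Nup153 had 424, 415 and 480.2 CPM in inflamed libraries, 508, 426 and 371 in tolerized libraries, 429.7, 390.0 and 430.0 in activated libraries, against 241, 243 and 223 in naive libraries.

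Nup210 went the other way. It encodes a membrane protein of the pore, and in mouse CD4 T cells it is known to be needed for the upkeep of naive cells. It lies at chr6:91013067-91118322 and measured 426, 473 and 454 CPM in inflamed libraries, 444, 426 and 543 in tolerized libraries, 409.8, 412 and 487 in activated libraries, against 677, 655 and 579 in naive libraries. Each of the 9 antigen-exposed libraries was below each of the naive libraries, at -0.50 in inflamed, -0.44 in tolerized and -0.55 in activated cells (SE 0.11 each, limma adjusted p from 0.00135 to 0.00444). By mean CPM per kb it was the most abundant of the 46 genes in naive cells, at 90.6 ± 7.31 (SD, n = 3), and it ranked 11 in inflamed, tolerized and activated cells, at 64.1 ± 3.40, 66.9 ± 8.96 and 62.0 ± 6.24. Its relative Nup210l was present at a low level, with 2.72, 3.06 and 1.91 CPM in inflamed libraries, 1.90, 2.41 and 2.94 in tolerized libraries, 1.33, 2.37 and 2.47 in activated libraries, against 2.46, 2.95 and 2.57 in naive libraries. The groups overlapped and no change was called, with adjusted p from 0.218 to 0.828. Nup62-il4i1, a transcript that joins exons of Nup62 to those of the neighbouring Il4i1, had 8.96, 6.11 and 5.36 CPM in inflamed libraries, 6.34, 6.45 and 6.58 in tolerized libraries, 7.17, 7.14 and 4.07 in activated libraries, against 7.92, 8.71 and 9.29 in naive libraries. Its tolerized and activated libraries lay below the naive ones and its inflamed libraries overlapped them. The changes of -0.33 in inflamed, -0.37 in tolerized and -0.47 in activated cells (SE 0.22 each, limma adjusted p from 0.0723 to 0.191) were not called, and reads in the exons it shares with Nup62 cannot be assigned to either with certainty.

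**Figure D4:**
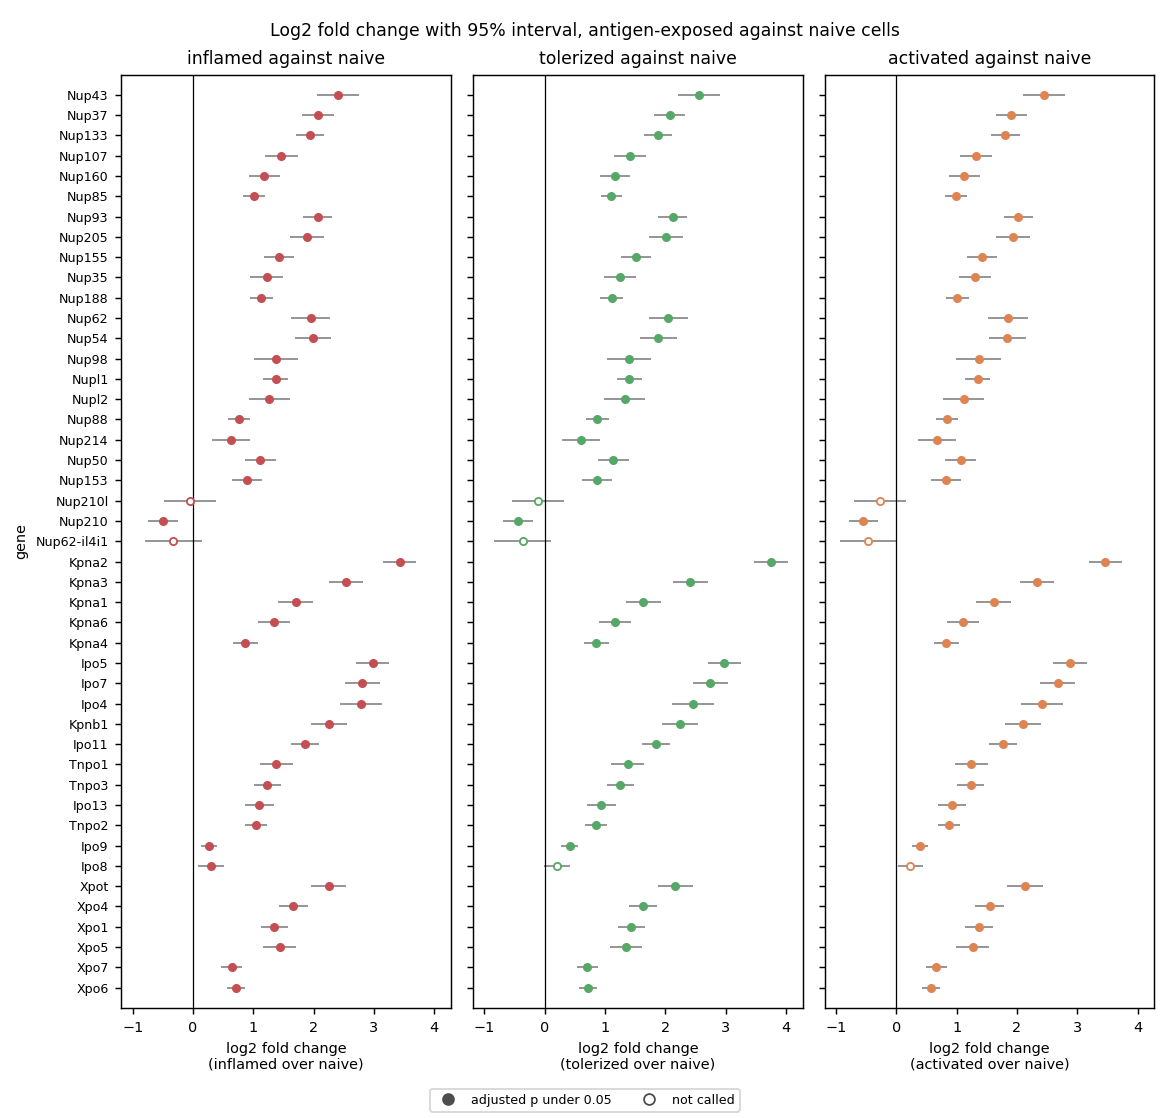
Log2 fold change with its 95% interval (x axis) of each tested transport gene (y axis) in inflamed, tolerized and activated cells over naive cells, from left to right, with filled points for an adjusted p under 0.05. The 3 panels have nearly the same profile, with Kpna2 at 3.42, 3.75 and 3.47 and Nup210 left of 0 in each.

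Among the antigen-exposed groups no transport gene was called. Between inflamed and tolerized cells limma called 0 of 45, with 3 at an unadjusted p under 0.05, while 1.66% of all genes were higher and 1.12% lower in inflamed cells. Of all 12499 genes, 1837 were at an unadjusted p under 0.05 there. Between inflamed and activated cells limma called 0 of 45, with 1 at an unadjusted p under 0.05, against 1.54% of all genes higher and 0.384% lower in inflamed cells. Here 1250 of all 12499 genes were at an unadjusted p under 0.05. Between tolerized and activated cells limma called 0 of 45, with 1 at an unadjusted p under 0.05, and 0% of all 12499 genes were called higher and 0% lower, with 531 at an unadjusted p under 0.05. A limma-voom fit of the same reads also called 0 of the 45 genes in each comparison. The design gave these genes 95% intervals with a median half-width of 0.26 on the log2 scale, against 0.34 for all tested genes. Every interval of the 45 genes lay within a 2-fold change in all 3 comparisons, and within 1.5-fold for 43 genes between inflamed and tolerized, 42 between inflamed and activated and 44 between tolerized and activated cells. Most of all 12499 genes did likewise, with 10370, 10518 and 10869 within 2-fold in the same order. Within 1.5-fold there were 7519, 7729 and 8439 of them.

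The values nearest to a difference concerned Kpna2, Ipo9, Tnpo2 and Ipo4. Kpna2 was lower in each inflamed library than in each tolerized library, as the values above show, at a difference of -0.33 ± 0.13 (95% interval -0.61 to -0.05, unadjusted p = 0.0238, limma adjusted p = 0.236). Tolerized and activated libraries overlapped in Kpna2, with a difference of 0.29 ± 0.13 (unadjusted p = 0.0439, adjusted p = 1). Beside this, 15 genes of the G2 and M phases summed to 120.5, 310.3 and 1128 CPM in the tolerized libraries 1, 2 and 3, 92.6 to 94.7 in inflamed libraries and 92.6 to 105 in activated libraries, against 71.1 to 176 in naive libraries. Their part in the level of Kpna2 was not tested. Ipo9 was lower in each inflamed library than in each tolerized library, at a difference of -0.14 ± 0.06 (adjusted p = 0.309). Tnpo2, an import receptor close to Tnpo1, had 239, 225 and 255 CPM in inflamed libraries, 223, 214 and 193 in tolerized libraries, 218, 221 and 203 in activated libraries, against 122, 118 and 108 in naive libraries. Its inflamed libraries lay above all tolerized and activated ones, by 0.19 ± 0.08 over tolerized cells (adjusted p = 0.313) and by 0.16 ± 0.08 over activated cells (adjusted p = 0.566). Ipo4 was 0.37 ± 0.16 higher in inflamed than in activated cells, with overlapping libraries (95% interval 0.02 to 0.72, adjusted p = 0.458), and 0.32 ± 0.16 higher in inflamed than in tolerized cells (adjusted p = 0.382).

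The next smallest p-values belonged to Kpna6 and Xpo6 between inflamed and activated cells, at 0.24 ± 0.12 (adjusted p = 0.572) and 0.13 ± 0.07 (adjusted p = 0.578), to Ipo13 between inflamed and tolerized cells, at 0.16 ± 0.11 (adjusted p = 0.587), and to Xpo6, Nup85, Nup37 and Nupl2 between tolerized and activated cells, at 0.12 to 0.21 (adjusted p = 1 each). The median difference over the 45 genes was 0.01 between inflamed and tolerized, 0.09 between inflamed and activated and 0.07 between tolerized and activated cells, and the whole range ran from -0.33 to 0.37. Between tolerized and activated cells 41 of the 45 differences were above 0, against 52.5% of those of all genes. In all 45 the libraries of the groups overlapped, a count that was not made over all tested genes. Same-numbered libraries of these groups deviated together, and within numbers 19 of the 45 genes were higher in the tolerized library in all 3 pairs and 1 was lower in all 3, against 18.5% and 12.5% of all tested genes. Kpna2, Kpnb1, Ipo5, Nup62, Nup93 and Xpo6 were among the 19, and a fit with the number as a block called 0 of the 45. In inflamed with activated libraries, which also deviated together by number, 13 of the 45 were higher in the inflamed library in all 3 pairs and 0 lower, against 17.1% and 16.6% of all tested genes, and the block fit again called 0. Since the genes moved together from library to library, as given below, they are not separate observations, and these counts of directions were not tested.

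**Figure D5:**
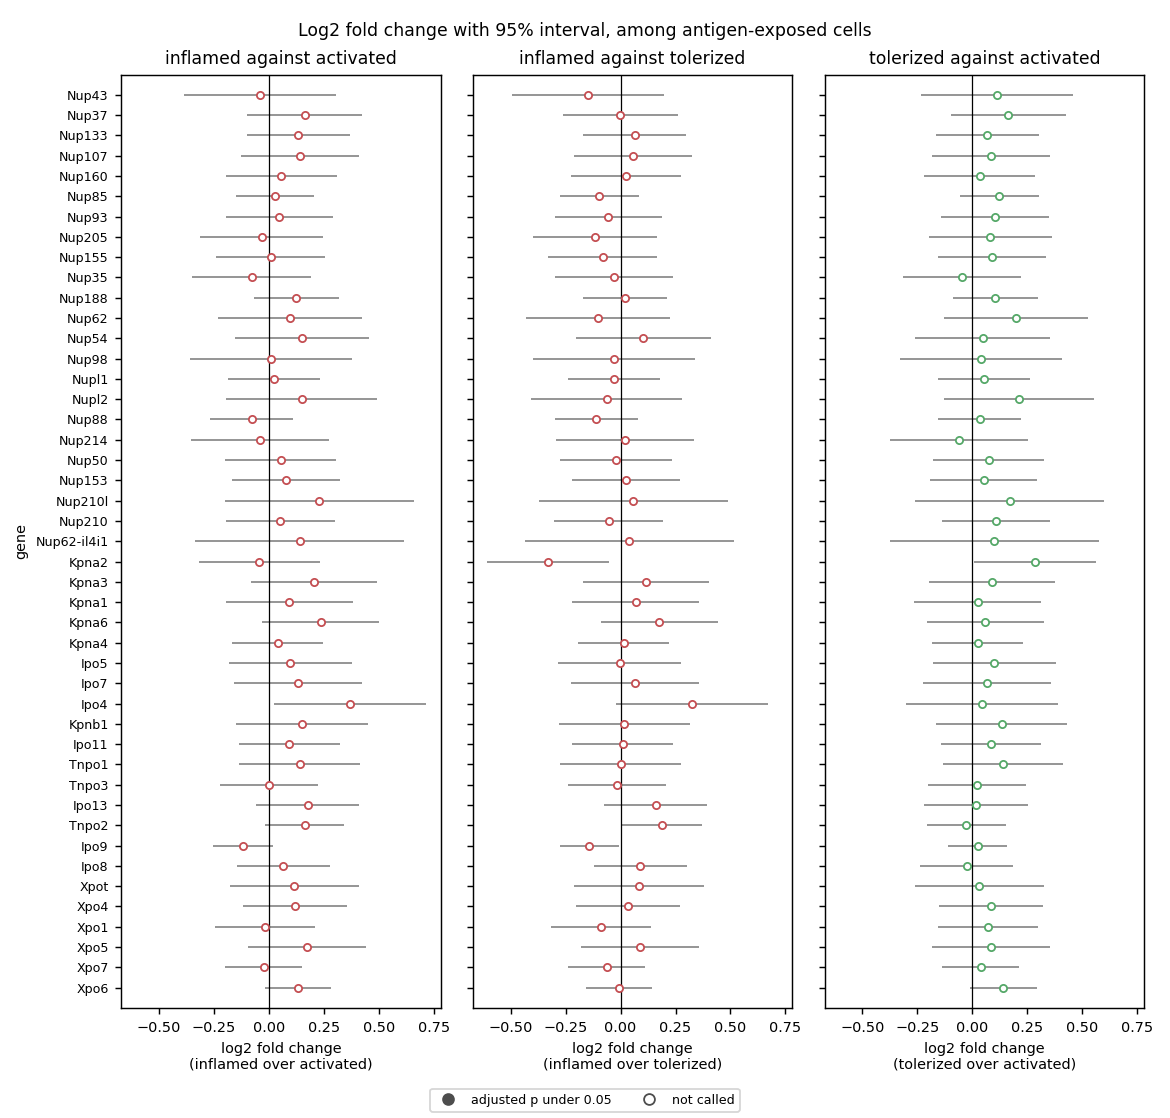
Log2 fold change with its 95% interval (x axis) of each tested transport gene (y axis) between antigen-exposed groups, inflamed over activated, inflamed over tolerized and tolerized over activated from left to right. All points are open, since no gene was called, and all lie between -0.33 and 0.37.

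The genes moved together from library to library within a group. Tolerized 1 held the highest level of its group in 40 of the 45 genes and tolerized 3 the lowest in 38, activated 1 the highest in 37 and activated 3 the lowest in 29, and inflamed 3 the highest in 29 and inflamed 2 the lowest in 29. These counts were made for the transport genes only and not over all tested genes, so they do not mark the pattern as particular to them. The summed level of the 46 genes was 10504, 9868 and 11009.7 CPM in inflamed 1, 2 and 3, 11812, 10181 and 9336 CPM in tolerized 1, 2 and 3, 10835, 9505 and 9171 CPM in activated 1, 2 and 3, and 4059, 4081 and 3711 CPM in naive 1, 2 and 3. The median coefficient of variation over genes was 7.22% in inflamed, 12.7% in tolerized, 9.82% in activated and 6.56% in naive cells. Activated 1 and inflamed 1 carried the most macrophage transcripts of their groups (872 and 450.1 CPM) and tolerized 3 the most G2 and M transcripts. Without these 3 libraries together, limma called 42 genes higher in inflamed, 41 in tolerized and 41 in activated cells relative to naive cells, with Nup62-il4i1 now also lower in activated cells, and 0 between antigen-exposed groups.

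Genes that work with the 45 but carry other names were read from lists of textbook members. Of all tested genes 35.3% to 37.4% were called higher in the comparisons with naive cells. Of 10 other pore proteins, 9 rose in inflamed cells and 10 in tolerized and in activated cells, with list medians of 1.37 in inflamed, 1.31 in tolerized and 1.27 in activated cells. The exception, named after its values were seen, was Gle1, a factor of RNA export at the cytoplasmic face, at 0.11 in inflamed cells (adjusted p = 0.256). Rae1, a partner of Nup98 in RNA export, averaged 199.9 ± 10.2 CPM in inflamed, 185 ± 19.9 in tolerized and 177 ± 19.0 in activated cells, against 66.5 ± 3.25 in naive cells (SD, n = 3 each). Tmem48, a membrane protein that anchors the pore and is also called Ndc1, rose by 1.69 in inflamed, 1.77 in tolerized and 1.72 in activated cells (SE 0.14 each), unlike the membrane nucleoporin Nup210. Sec13 and Seh1l, which complete the outer ring, rose by 1.53 to 1.78. Of the Ran system and other karyopherins, all 11 tested genes of 12 listed rose in each comparison, with medians of 2.09 in inflamed, 2.09 in tolerized and 2.06 in activated cells. Ran itself averaged 1283 ± 58.5 CPM in inflamed, 1210.2 ± 118 in tolerized and 1177 ± 241 in activated cells, against 165 ± 10.4 in naive cells. Rcc1, the chromatin-bound exchange factor that loads Ran with GTP, rose by 3.30 in inflamed, 3.49 in tolerized and 3.35 in activated cells (SE 0.18 each). Rangrf, named as a nucleotide release factor of Ran, rose by 3.52 in inflamed, 3.53 in tolerized and 3.54 in activated cells (SE 0.17 each). Cse1l, which returns importin alpha to the cytoplasm, rose by 1.95 in inflamed, 1.98 in tolerized and 1.90 in activated cells (SE 0.11 each).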

How the data were processed

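Messenger RNA of the 12 sorted samples was sequenced on an Illumina HiSeq, per the labels. The authors deposited a table of read counts per gene with gene symbols and exon lengths. The submitters' processing notes name TopHat2, bedtools and DESeq and the builds mm10 and GRCm38, without versions or roles. All value columns matched a sample by name. Depth was 29.3 to 84.5 M reads, which limits the precision of low genes.

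From the deposited counts, trimmed mean of M factors (0.897 to 1.22) gave CPM. Genes were kept at 0.258 CPM or more in 3 libraries and 15 reads in all, which left 12499. log2(CPM + 1) of all 12 libraries was fitted with limma 3.58.1 in R 4.3.3 (trended prior variance), with Benjamini-Hochberg adjustment over all genes, and the procedure was tested on simulated data. A count model was not the main test because the count columns are written with commas inside the numbers and were declared as another unit. Fold changes on this scale understate the change of low genes. Within groups, libraries correlated at r of 0.961 to 0.994, and no duplicated library was found. Same-numbered libraries deviated together (r above 0.1 for every number) in tolerized with activated libraries (0.19 to 0.60) and in inflamed with activated libraries (0.15 to 0.64), but not in the other 4 comparisons. What a number stands for is not in the labels.

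The genes, their roles and all lists were chosen with earlier results of these data known, and the role of Nup62-il4i1 was added after the table was seen. Named were, per comparison, the 6 largest called rises and falls, the 3 smallest called changes, every gene not called, the 5 smallest p-values where none was called, the extremes of each role, all importin alpha genes, and up to 4 genes of each related list by adjusted p. Others named in a role are given to complete it. Promoters and coordinates came from RefSeq (GRCm38.p6), matched by gene identifier, and exon overlaps from GENCODE M21, matched by symbol. Alternatives were library size alone, median-of-ratios scaling, limma-voom, no filter, a pseudocount of 0.1, the 2 groups alone, a replicate block and each library left out.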

Additional observations from a re-analysis of the deposited data

How the results depend on the processing

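The counts of genes called against naive cells changed little with the settings tried. With each library left out in turn, 41 to 42 genes were called higher in inflamed, 41 to 42 in tolerized and 41 to 42 in activated cells, 1 was called lower in each, and 0 were called between antigen-exposed groups. With the replicate block the counts of higher and lower genes were 42 and 1 in inflamed, 41 and 1 in tolerized and 41 and 1 in activated cells, and 0 between antigen-exposed groups, so the pairing changed no call. In a block fit of the 2 groups alone, added after the same-number correlations were seen, 41 were higher in inflamed cells, since Ipo8 was lost (adjusted p = 0.0833). Library size alone gave 2 lower genes in each comparison with naive cells and 40 higher in each, with Ipo8 at -0.033 and Ipo9 at -0.059 in inflamed cells. The count of lower genes was also 2 in activated cells with limma-voom and without activated 1, inflamed 1 and tolerized 3 together (added after the marker sums were seen), and 2 in tolerized cells with only these groups fitted. The additional lower gene was Nup62-il4i1 each time. Apart from Ipo8 and Ipo9, the 41 other called genes in inflamed cells kept their call under every planned setting, as did the 41 other than Ipo9 in tolerized and in activated cells.

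CPM measures shares of a library, so a change in total RNA per cell is not seen. With 3 libraries a group, the 95% intervals between antigen-exposed groups had a median half-width of 0.26 on the log2 scale. These intervals are not adjusted for the number of genes. Smaller differences were mostly not resolved, and larger ones, such as those of Kpna2 and Ipo4 given above, were not called either. The naive libraries held more macrophage, erythroid and B cell transcripts than the others.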

Other observations

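Genes that work next to the pore without belonging to it were read from textbook lists. Of 20 genes of messenger RNA export, 16 rose in each antigen-exposed group relative to naive cells by limma, adjusted over all genes. Of all tested genes 35.3% to 37.4% were called higher in these comparisons. The median change over the 20 was 1.11 in inflamed, 1.05 in tolerized and 1.01 in activated cells. Alyref, an adaptor that loads the export receptor onto messenger RNA, rose by 1.89 in inflamed, 1.92 in tolerized and 1.76 in activated cells (SE 0.13 each), and Thoc1, a subunit of the THO complex, by 1.24 in inflamed, 1.27 in tolerized and 1.32 in activated cells (SE 0.09 each). Nxf1, the bulk export receptor itself and named here after its values were seen, changed by 0.03 in inflamed, -0.06 in tolerized and -0.0015 in activated cells (SE 0.09 each) and was not called. In inflamed cells 2 genes of the list were called lower, Nxt2, a partner of Nxf1, at -0.69 and Mcm3ap, a scaffold of a nuclear-side export complex, at -0.18. Between antigen-exposed groups limma called 0 of the 20, with 5 at an unadjusted p under 0.05 between inflamed and tolerized, 3 between inflamed and activated and 0 between tolerized and activated cells. Of all 12499 tested genes 1837, 1250 and 531 were at an unadjusted p under 0.05, in the same order.

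For the nuclear lamina and envelope 13 genes were read. In inflamed cells 5 were called higher and 7 lower than in naive cells, in tolerized cells 6 and 7, and in activated cells 6 and 6. Of all tested genes 35.3% to 37.4% were called higher and 35.3% to 35.9% lower in these comparisons. Banf1, which tethers chromatin to the envelope, rose by 2.12 in inflamed, 2.05 in tolerized and 1.99 in activated cells (SE 0.13 each), Emd (emerin) by 1.63 in inflamed, 1.69 in tolerized and 1.55 in activated cells (SE 0.12 each) and Lmnb2, a B-type lamin, by 1.14 in inflamed, 1.60 in tolerized and 1.52 in activated cells (SE 0.19 each). Lemd2, an inner membrane protein, fell, with changes of -0.68 in inflamed, -0.75 in tolerized and -0.55 in activated cells (SE 0.08 each). The largest falls, named after their values were seen, were those of Sun2, Syne1 and Syne2, which link the nucleus to the cytoskeleton, and of Lbr, the lamin B receptor. Sun2 averaged 74.0 ± 50.9 CPM in inflamed, 86.2 ± 54.0 in tolerized and 119.8 ± 92.7 in activated cells, against 659.9 ± 42.3 in naive cells (SD, n = 3 each), with changes of -3.34 in inflamed, -3.15 in tolerized and -2.83 in activated cells (SE 0.69 each). Syne1 changed by -3.94 in inflamed, -2.63 in tolerized and -2.81 in activated cells (SE 0.83 each), Syne2 by -3.32 in inflamed, -2.97 in tolerized and -2.59 in activated cells (SE 0.59 each) and Lbr by -1.67 in inflamed, -1.39 in tolerized and -1.35 in activated cells (SE 0.33 each). These lists were chosen with earlier results of the same data known, and their directions were not tested as sets.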
